A study of Mus musculus with 2 samples.

Results

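The TGF-β genes examined here were 10 of the 32291 genes in the table, chosen by name: the ligand genes *Tgfb1*, *Tgfb2*, *Tgfb3* and *Inhba*, the receptor genes *Tgfbr1* and *Tgfbr2*, the signal transducer genes *Smad2*, *Smad3* and *Smad4*, and the inhibitor gene *Smad7*. All 10 were found in the table and were followed in 11 annotated cell types of murine colitis-associated colon tumors (CACs). The study compared tumors of mice with floxed *Mir34a* alleles, labelled Mir34a_F/F, with tumors of mice that carry the same floxed alleles and the LysM-Cre driver, labelled Mir34a_Mye_KO, in which recombination is directed to the myeloid lineage. LysM-Cre acts in macrophages and neutrophils, so the floxed alleles of the other cell types are not its intended target. The mice had a C57BL/6 background and were 6 to 10 weeks old at treatment, with 10 mg/kg azoxymethane ahead of both the first and the second of 3 cycles of dextran sulfate sodium in the drinking water (2.5% in the earlier cycles and 2% in the last), and tumors were taken on day 110. For each genotype 6 to 8 tumors of 3 mice were pooled, 30000 cells were loaded for droplet-based single-cell RNA sequencing, and 1 library resulted.

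TGF-β ligands are secreted in a latent form and, once released, bind a type II receptor (*Tgfbr2*), which recruits and activates a type I receptor (*Tgfbr1*). The activated receptor phosphorylates SMAD2 and SMAD3, which enter the nucleus with SMAD4 and regulate transcription, and SMAD7, itself induced by the pathway, blocks the receptor. *Inhba* encodes the βA subunit of activins and inhibins, and activins reach the same SMADs through other receptors. In the colon this pathway restrains epithelial growth, and in tumor stroma it is known for its actions on fibroblasts and on T cells.

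The deposited table held 38883 cells, 20312 from the library labelled Mir34a_F/F (the F/F-labelled library) and 18571 from the library labelled Mir34a_Mye_KO (the Mye_KO-labelled library), and 96 barcode sequences occurred in both. The unique molecular identifier (UMI) count per cell had a median of 4787 in the F/F-labelled and 7716 in the Mye_KO-labelled library, and the second was deeper in 11 of 11 cell types, by 1.11-fold in endothelial cells to 5.69-fold in B cells. The median share of mitochondrial UMIs was 4.63% and 6.28%. In macrophages the added feature for the primary *Mir34a* transcript had 133 and 462 UMIs, a log2 ratio of Mye_KO-labelled over F/F-labelled of 0.62 with a 95% counting interval of 0.21 to 1.04, and the feature joining the Cre sequence to *Lyz2* had 451 and 172 UMIs, a log2 ratio of -1.74. The features for Cre alone and for the *Mir34a* hairpin, stem-loop and mature sequence had 0 UMIs in the cells of both libraries. The primary transcript was thus not lower, and the joint feature not higher, in the library labelled as deleted. Which reads the joint feature counts, with none on Cre alone, and whether the primary transcript feature lies in the deleted part were not tested, so these features do not check the labels and every direction given here rests on them. The summed markers of each cell type were highest in that cell type for 11 of 11 types in these libraries. The authors annotated the types by markers in these same data, so this is no independent check. By marker score 72.5% and 63.3% of all cells kept their annotated type, and 70.8% and 52.5% of basophils.

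Each level given is an average over the cells of a type, after every cell was scaled to 10000 UMIs, and its 95% interval covers counting error only. With 1 library of pooled mice per genotype, a difference between the libraries has no replicate check, so no test was made and none of the ratios distinguishes the genotypes from other differences between the libraries. Levels are compared between cell types and libraries within a gene, not between genes.

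miR-34a-5p, the mature product of the deleted gene, is shown because the seed is the part of a microRNA that pairs with most known target sites. It lies at chr4:150068473-150068494 on the plus strand (RefSeq, GRCm38), and capitals mark bases 2 to 8.
mmu-miR-34a-5p: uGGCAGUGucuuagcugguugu
The complement of these bases, CACTGCC in DNA letters, was looked for on the transcript strand of the 3′ UTRs annotated by GENCODE for GRCm38. It was present in 2 of the 10 genes, *Tgfb3* and *Smad7*, against 3131 of all 20741 genes with a 3′ UTR (15.1%). In *Smad7* the match began at base 360 of a 3′ UTR of 1570 bases. In *Tgfb3* it began at base 493 of 1035, at chr12:86057280-86057301 on the minus strand with its surroundings, the match in capitals.
*Tgfb3* 3′ UTR: ggaatcatatcttgCACTGCCt
In macrophages and neutrophils, the target cells of LysM-Cre, *Tgfb3* was under the filter on low values and *Smad7* was under 1.5-fold between the libraries. Other types of site, such as shorter matches, were not searched. The presence of a match is a description of sequence and not evidence of binding, and nothing about targeting is read from its absence.

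*Tgfb1* (chr7:25687002-25705077, plus strand, GENCODE annotation of GRCm38), the TGF-β ligand gene active in most immune cells, had its highest level in macrophages, at 3.23 UMIs per 10000 in the F/F-labelled and 3.06 in the Mye_KO-labelled library (5672 and 11023 UMIs). T cells followed with 2.08 and 2.32, and dendritic cells with 1.94 and 2.30. The values of T cells and dendritic cells overlapped, whereas macrophages lay above both in either library. Epithelial cells, the most numerous cells, were lowest at 0.398 and 0.361. Macrophages were 10.9% and 14.01% of the cells but held 41.7% and 44.5% of all *Tgfb1* UMIs.

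**Figure D1:**
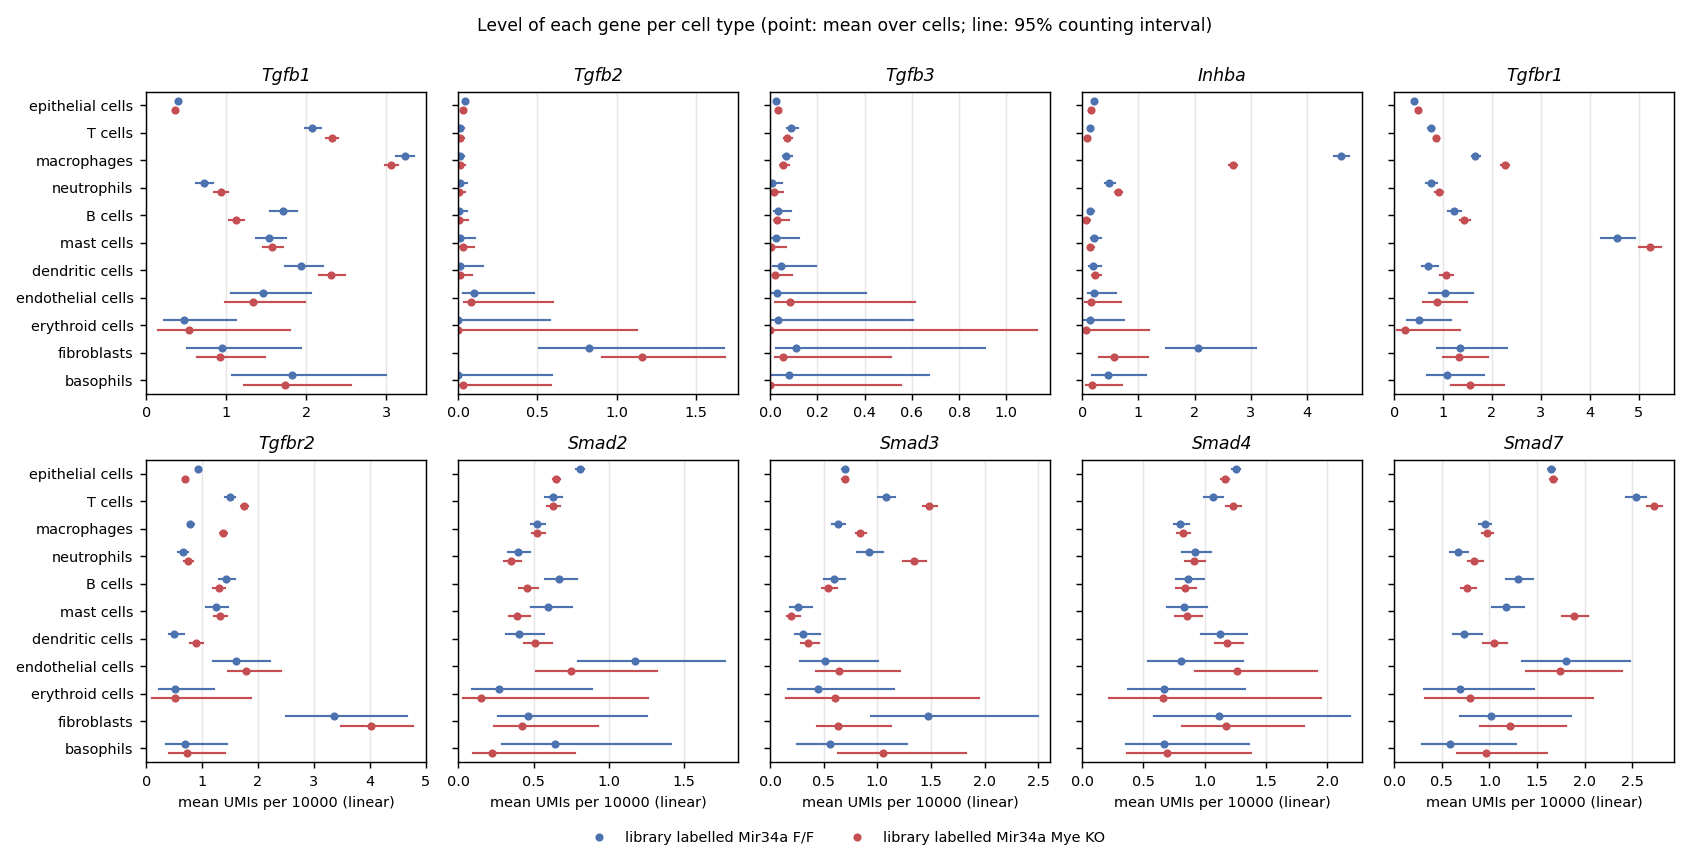
Level of each of the 10 genes (x axis, mean UMIs per 10000, linear, a scale of its own per gene) in the 11 cell types (y axis) for the library labelled Mir34a F/F (blue) and the library labelled Mir34a Mye KO (red). Points are means over cells and lines are 95% counting intervals; *Tgfb1* and *Inhba* are highest in macrophages, *Tgfbr1* in mast cells and *Smad7* in T cells in both libraries.

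Within macrophages *Tgfb1* was higher in cells with a UMI of *Ly6c2*, a marker of recent monocytes, at 4.70 and 5.27, than in cells without one, at 2.83 and 2.55. Cells with a UMI of *Mrc1*, the mannose receptor, had 2.47 and 2.67 against 3.69 and 3.41 in cells without, log2 ratios of -0.58 and -0.35 that were -0.24 (interval -0.61 to 0.11) and -0.58 (interval -0.90 to -0.28) after thinning. The *Ly6c2* split was larger than any difference of *Tgfb1* between the libraries in macrophages, where the log2 ratio was -0.08 with an interval of -0.14 to -0.02. That ratio changed sign, to 0.19, when UMIs were summed over the cells. In neutrophils *Tgfb1* was 0.716 and 0.929, a log2 ratio of 0.38 with an interval of 0.15 to 0.61. In B cells it was 1.71 and 1.12, a log2 ratio of -0.61.

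*Tgfb2* (chr1:186622792-186705989, minus strand), a ligand gene, was highest in fibroblasts at 0.827 and 1.16, from 28 and 113 UMIs in 57 and 60 cells. One fibroblast of the Mye_KO-labelled library held 24 of the 113 UMIs, and without the fibroblast with most UMIs in each library the log2 ratio went from 0.49 to 0.31. Endothelial cells were next at 0.0968 and 0.0798, with 9 and 10 UMIs. Epithelial cells had only 0.0412 and 0.0299 but, by their number, held 83.7% and 59.8% of the *Tgfb2* UMIs. After each cell was thinned to 1000 UMIs, 0.137% and 0.154% of macrophages had a *Tgfb2* UMI, against 0% of B cells in both libraries, 0 of 931 and 0 of 922 cells, which allows a share of up to 0.322% and 0.325%. The macrophage shares lie under that limit and are not read as expression.

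*Tgfb3*, the third TGF-β ligand gene and one with a seed match, stayed below the filter of 0.1 UMIs per 10000 in 11 of 11 cell types. The highest level in any library was 0.11, in fibroblasts of the F/F-labelled library from 4 UMIs. T cells had 0.0888 and 0.0692 from 119 and 190 UMIs. Macrophages had 0.0654 and 0.0538 from 150 and 220 UMIs, a log2 ratio of -0.28 with an interval of -0.71 to 0.14. At these counts a difference between the libraries was not detectable over all macrophages. In macrophages with *Mrc1* the level was 0.110 and 0.0754 from 101 and 185 UMIs, a log2 ratio of -0.55 (interval -0.98 to -0.11), and thinning left 3 and 2 UMIs there.

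*Inhba* (chr13:16011851-16031621, plus strand) was, like *Tgfb1*, higher in macrophages than in the 10 other cell types in both libraries. The level was 4.61 in the F/F-labelled and 2.68 in the Mye_KO-labelled library, from 6657 and 8721 UMIs, and these cells held 73.4% and 80.7% of all *Inhba* UMIs. Fibroblasts were next with 2.06 and 0.573, from 94 and 24 UMIs, and neutrophils followed with 0.482 and 0.637. The values of fibroblasts and neutrophils overlapped. After thinning, 16.9% and 10.3% of macrophages had an *Inhba* UMI against 0.752% and 0.976% of B cells, whose median depths were 3664 and 20852 UMIs (7252 and 11227 for macrophages).

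The *Inhba* UMIs sat in few macrophages. The tenth of macrophages with most *Inhba* UMIs held 79.7% of them in the F/F-labelled and 91.1% in the Mye_KO-labelled library, and the highest cell held 109 and 168. For *Tgfbr2* the same share was 49.3% and 49.0%. Macrophages with a UMI of *Arg1*, the arginase gene, had 7.14 and 6.00 against 2.80 and 1.47 in those without. Macrophages with *Mrc1* had 1.12 and 1.47 against 6.72 and 3.75 without it, a log2 ratio of -2.58 and -1.35. *Inhba* was thus higher with *Arg1* and lower with *Mrc1* in both libraries. Cells with a marker UMI were deeper, with medians of 10915 and 18462 UMIs with *Mrc1* against 5854 and 6140 without, and after thinning the log2 ratios were -2.72 and -1.87 for *Mrc1* and 1.25 and 2.26 for *Arg1*.

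In macrophages the level of *Inhba* was lower in the Mye_KO-labelled library, with a log2 ratio of -0.78 (interval -0.84 to -0.73). The median of all genes there was -0.06. The ratio differed in size between the subsets and was above 0 in cells with *Mrc1*. With *Mrc1* the log2 ratio was 0.39 and without it -0.84. With *Arg1* it was -0.25 and without it -0.93, and with *Ly6c2* it was -0.38 and without it -0.92. After thinning, the ratio had intervals that included 0 in cells with *Mrc1* (0.09, -0.69 to 0.91), with *Arg1* (0.12, -0.12 to 0.35) and with *Ly6c2* (0.19, -0.26 to 0.63). In thinned cells without the marker it stayed below 0. It was -0.75 without *Mrc1* (-0.90 to -0.61), -0.89 without *Arg1* (-1.06 to -0.71) and -0.89 without *Ly6c2* (-1.04 to -0.75). Cells with an *Arg1* UMI were 41.7% of macrophages in the F/F-labelled and 26.7% in the Mye_KO-labelled library, and cells with *Mrc1* were 37.7% and 47.0%. After thinning these shares were 20.8% and 9.75% for *Arg1* and 12.5% and 18.5% for *Mrc1*. The summed B cell markers in macrophages were 1.61 and 5.77 UMIs per 10000, with 3 of 5 higher in the Mye_KO-labelled library and none at 0, and the part of these shifts in the *Inhba* ratio was not tested. When UMIs were summed over the macrophages in place of averaging over cells, the ratio was -0.38 and no longer past 1.5-fold.

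**Figure D2:**
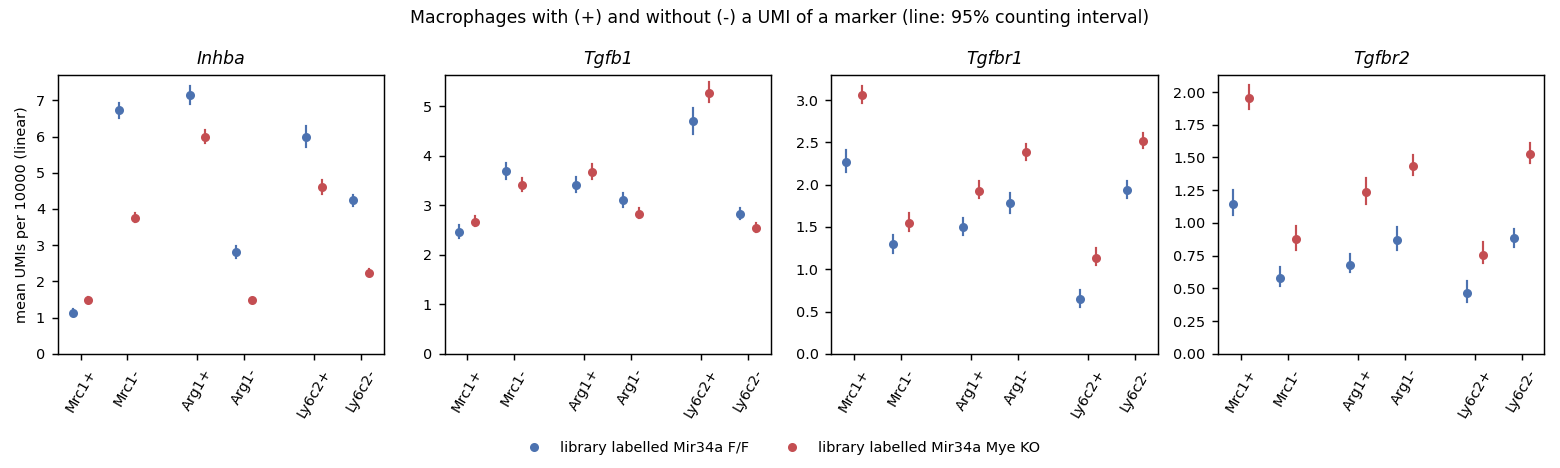
Levels (y axis, mean UMIs per 10000, linear) of *Inhba*, *Tgfb1*, *Tgfbr1* and *Tgfbr2* in macrophages with (+) and without (-) a UMI of *Mrc1*, *Arg1* or *Ly6c2* (x axis), blue for the library labelled Mir34a F/F and red for the library labelled Mir34a Mye KO; lines are 95% counting intervals. *Inhba* is 1.12 and 1.47 in *Mrc1*+ against 6.72 and 3.75 in *Mrc1*- cells, and *Tgfbr2* is higher in the Mir34a Mye KO library in each of the 6 groups shown.

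Other cell types had lower *Inhba* in the Mye_KO-labelled library as well. In fibroblasts the log2 ratio was -1.84 with an interval of -2.89 to -0.91. The F/F-labelled fibroblasts also had more of the 5 neutrophil markers, 31.9 against 4.75 summed UMIs per 10000, with 5 of 5 lower and 1 at 0 in the Mye_KO-labelled library, and their part was not tested. In the F/F-labelled library 1 fibroblast held 36 of the 94 *Inhba* UMIs. Without the highest fibroblast of each library the log2 ratio was -1.68. In T cells *Inhba* was 0.145 and 0.0903, in B cells 0.141 and 0.0733, and in mast cells 0.214 and 0.136. Thinning left an *Inhba* UMI in 1.298% and 1.02% of T cells and 1.60% and 1.28% of mast cells, within the intervals of the B cell shares (0.303% to 1.54% and 0.447% to 1.84%) except in mast cells of the F/F-labelled library. These low levels are therefore not read as expression by these cells, nor their ratios as a change in them. Over 8 other ways of computing it, the T cell ratio of -0.69 ranged from -0.71 to -0.26 and was past 1.5-fold in 4 of 8. The B cell ratio of -0.94 ranged from -1.24 to 0.18, the latter after thinning, and was past 1.5-fold in 5 of 8. The mast cell ratio of -0.65 was past 1.5-fold in 3 of 8 and was -0.33 without the mast cell with most UMIs in each library. Epithelial cells, with 1745 and 927 UMIs, were at 0.204 and 0.150, a log2 ratio of -0.44. Over 8 alternatives it ranged from -0.9962 by marker score to -0.10 with the stricter cell quality, and it was past 1.5-fold in 2 (by marker score and, at -0.82, with summed UMIs). In those with a *Krt20* UMI it was -1.15 (interval -1.48 to -0.82), and in those without it -0.24 (interval -0.48 to 0.0048). Thinning left 22 and 6 UMIs in 1264 and 940 *Krt20*+ cells, a log2 ratio of -1.45 (interval -3.04 to -0.10). Without *Krt20*, 180 and 136 UMIs were left in 9723 and 8765 thinned cells. The epithelial level lay close to that of mast cells. The share of epithelial cells with a UMI was not set against that of B cells, so a level above that background was neither shown nor excluded. The epithelial ratio and its *Krt20* split are therefore not read as a change in these cells. In neutrophils the order was the other way, with a log2 ratio of 0.40 (interval 0.13 to 0.68) that turned to -0.61 by marker score. Dendritic cells were at 0.184 and 0.237, a log2 ratio of 0.36 (interval -0.26 to 1.004).

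**Figure D3:**
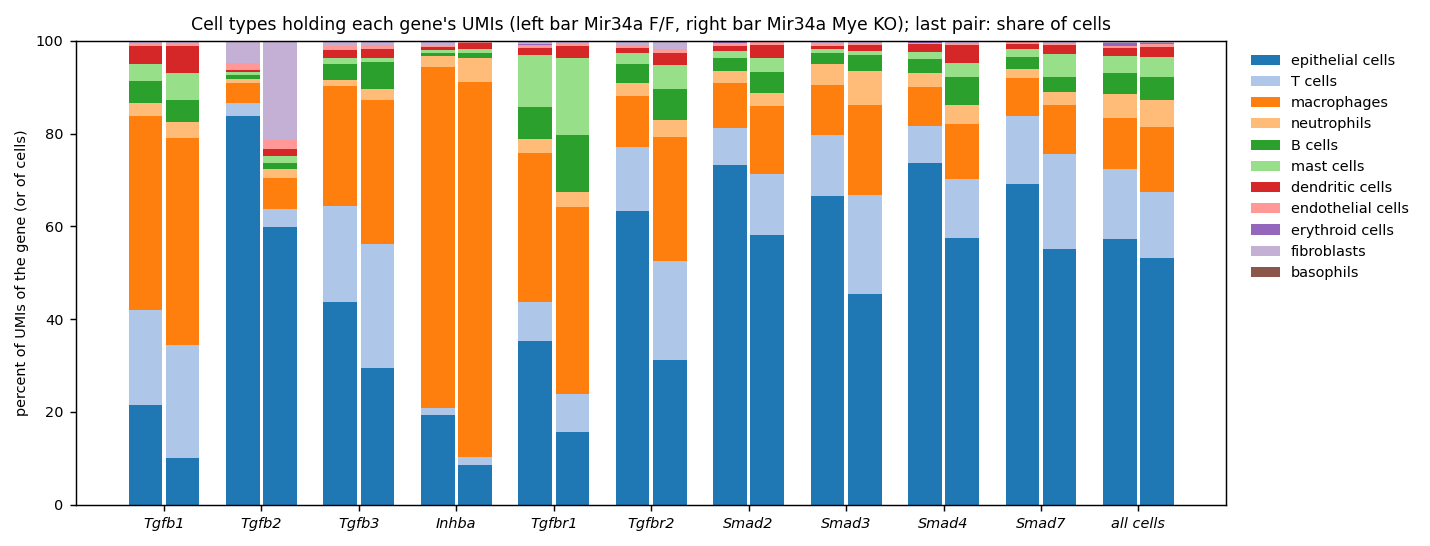
Share of each gene's UMIs (y axis, percent) held by each of the 11 cell types (colors), with the left bar of each pair for the library labelled Mir34a F/F and the right bar for the library labelled Mir34a Mye KO; the last pair shows the share of cells. Macrophages hold 73.4% and 80.7% of *Inhba* UMIs with 10.9% and 14.01% of the cells.

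*Tgfbr1* (chr4:47353222-47414931, plus strand), the type I receptor gene, had its highest level in mast cells at 4.56 and 5.22, from 1212 and 3819 UMIs. Macrophages were next at 1.66 and 2.26, apart from mast cells and from all lower cell types in both libraries. Fibroblasts had 1.34 and 1.32 and B cells 1.21 and 1.44, which overlapped. Epithelial cells had 0.409 and 0.483, which overlapped erythroid cells at 0.512 and 0.223 from 21 UMIs. In mast cells 34.7% and 36.1% of thinned cells had a *Tgfbr1* UMI, against 4.65% and 3.33% of erythroid cells.

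The macrophage levels of *Tgfbr1* had a log2 ratio of 0.44 (interval 0.36 to 0.53), under 1.5-fold. One macrophage of the Mye_KO-labelled library held 210 *Tgfbr1* UMIs, and without the highest macrophage in each library the ratio was 0.43. Over 8 alternatives it ranged from 0.31 by marker score to 0.64 with summed UMIs, and only the latter was past 1.5-fold. *Mrc1*+ macrophages had 2.27 and 3.06, and those without had 1.29 and 1.55. *Ly6c2*+ macrophages had 0.644 and 1.14 against 1.94 and 2.52 without, the reverse of *Tgfb1*.

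*Tgfbr2* (chr9:116084293-116175360, minus strand), the type II receptor gene, was highest in fibroblasts at 3.36 and 4.03, from 112 and 316 UMIs. Endothelial cells had 1.61 and 1.79 and T cells 1.497 and 1.75, values that overlapped. Macrophages had 0.792 and 1.38, which overlapped the mast cells above them in the order (1.24 and 1.31) and the epithelial cells below them (0.935 and 0.687). Thinning left a *Tgfbr2* UMI in 7.02% and 11.4% of macrophages and in 6.98% and 13.3% of 86 and 30 erythroid cells, whose median depths before thinning were 1787 and 2312 UMIs. The macrophage shares lay within the exact 95% intervals of the erythroid shares, 2.60% to 14.6% and 3.76% to 30.7%, and the share alone is not read as expression.

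In macrophages *Tgfbr2* was the member with the largest excess in the Mye_KO-labelled library, with a log2 ratio of 0.80 and an interval of 0.69 to 0.92 from 1634 and 5428 UMIs. It stayed past 1.5-fold under 8 of 8 other ways of computing it, between 0.60 and 0.96. The direction was the same within each marker split. The ratio was 0.77 in *Mrc1*+ and 0.60 in *Mrc1*- macrophages, 0.86 with *Arg1* and 0.72 without, and 0.70 with *Ly6c2* and 0.79 without, although 9 and 4 UMIs in thinned *Ly6c2*+ cells gave -0.92 with an interval of -3.07 to 0.92. Dendritic cells had 0.501 and 0.889, a ratio of 0.83 (interval 0.48 to 1.19). Erythroid cells were at 0.512 and 0.521 from 19 UMIs, so the dendritic cell level was not above theirs in the F/F-labelled library. *Tgfbr1* in dendritic cells was 0.684 and 1.06, a ratio of 0.63 (interval 0.31 to 0.96). By marker score in place of the deposited annotation the dendritic cell ratios were 0.07 for *Tgfbr2* and 0.16 for *Tgfbr1*. Macrophage markers summed to 2.45 and 3.08 UMIs per 10000 in dendritic cells, with 4 of 5 higher in the Mye_KO-labelled library and none at 0, and their part was not tested.

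In epithelial cells *Tgfbr2* went the other way, with 0.935 and 0.687, a log2 ratio of -0.45 (interval -0.52 to -0.37). The median of all genes in epithelial cells was -0.22, and with that median subtracted the ratio was -0.23. With immunoglobulin, mitochondrial and ribosomal RNA-like genes left out of the totals it was -0.15. The ratio was -0.49 after thinning and -0.42 in cells with at least 500 genes and under 10% mitochondrial UMIs. The median share of mitochondrial UMIs in epithelial cells was 11.2% and 18.3%, and 2328 of 11614 and 3825 of 9865 epithelial cells had at least 25% mitochondrial UMIs. Splitting by *Lgr5*, *Krt20* or *Mki67*, markers of stem-like, differentiated and cycling epithelial cells, left the *Tgfbr2* ratio between -0.54 and -0.36. The 5 epithelial markers summed to 70.8 and 48.2 UMIs per 10000 in these cells, with 5 of 5 lower in the Mye_KO-labelled library and none at 0, and 70.3% and 49.1% of the annotated epithelial cells were also epithelial by marker score. Among cells called epithelial by that score the *Tgfbr2* ratio was -0.34.

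T cells differed inside the type. Those with a *Foxp3* UMI, the regulator of regulatory T cells, had less *Tgfbr2* at 0.874 and 1.12 than those without, at 1.61 and 1.94, a log2 ratio of -0.88 and -0.79. Those with a *Cd8a* UMI had more, at 1.86 and 2.40, than those without, at 1.48 and 1.71, although with 15 and 12 UMIs after thinning both intervals of that ratio included 0 (-0.15 to 1.43 and -0.34 to 1.44). *Foxp3*+ cells were 15.1% and 22.6% of T cells, and 5.83% and 6.85% after thinning. *Tgfbr1* in *Foxp3*+ cells was 0.720 and 1.13 against 0.754 and 0.776, a log2 ratio of -0.07 and 0.54, but after thinning both intervals included 0 (0.28, -0.55 to 1.013, and 0.33, -0.43 to 1.014).

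The receptor-activated *Smad2* (chromosome 18) and *Smad3* (chr9:63646767-63757994, minus strand) were highest in different cell types. *Smad2* was highest in endothelial cells at 1.17 and 0.749 and in epithelial cells at 0.809 and 0.652, and these overlapped. Averaged over the libraries, *Smad3* was highest in T cells at 1.08 and 1.48. Neutrophils at 0.923 and 1.34 and fibroblasts at 1.47 and 0.633 followed, all overlapping, with fibroblasts above T cells in the F/F-labelled library. Mast cells were lowest at 0.259 and 0.198. *Smad3* had a log2 ratio of 0.46 in T cells (interval 0.34 to 0.57), 0.54 in neutrophils (0.33 to 0.75) and 0.41 in macrophages (0.26 to 0.56), and none of the 3 was past 1.5-fold. Over 8 alternatives the ratio ranged from 0.40 to 0.56 in T cells, from 0.23 (by marker score) to 0.67 in neutrophils and from 0.25 (after thinning) to 0.72 in macrophages. It was past 1.5-fold in 0, 3 and 1 of them, with summed UMIs among these in neutrophils (0.61) and macrophages (0.72). *Smad2* was 0.524 and 0.525 in macrophages and 0.629 and 0.627 in T cells, and the intervals of both ratios included 0, at -0.16 to 0.16 and -0.15 to 0.15.

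In fibroblasts *Smad3* had a log2 ratio of -1.21 (interval -2.02 to -0.39) from 48 and 53 UMIs. By marker score it was 0.04, so this direction depends on which cells are called fibroblasts. *Smad2* in mast cells was 0.597 and 0.393, a ratio of -0.60 that was under 1.5-fold in 7 of 8 alternatives.

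*Smad4* (chromosome 18), the partner shared by the pathway's SMADs, varied little over cell types. Epithelial cells had 1.25 and 1.17, dendritic cells 1.12 and 1.18 and T cells 1.07 and 1.23, all overlapping, and the lowest, erythroid cells, had 0.665 and 0.660. Epithelial cells with a *Krt20* UMI had 1.55 and 1.54 against 1.104 and 0.983 without, a log2 ratio of 0.49 and 0.65. *Smad2* was higher in *Krt20*+ cells too, at 0.975 and 0.804 against 0.726 and 0.576, while *Tgfbr1* was lower, at 0.324 and 0.378 against 0.451 and 0.535. The epithelial *Tgfbr1* level overlapped that of erythroid cells, so its split is of a level not shown to exceed that background. *Krt20*+ cells were deeper, with medians of 7805 and 11021 UMIs against 4257 and 4861. After thinning the log2 ratios were 0.59 and 0.46 for *Smad4*, whose intervals left out 0. For *Smad2* they were 0.21 and 0.39 and for *Tgfbr1* -0.45 and -0.54, and for both genes the interval included 0 in the F/F-labelled library (-0.07 to 0.49 and -0.97 to 0.04).

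*Smad7* (chromosome 18), the inhibitor and the other gene with a seed match, was highest in T cells at 2.53 and 2.73, from 3202 and 6392 UMIs. Endothelial cells had 1.80 and 1.74 and epithelial cells 1.65 and 1.67, below T cells in both libraries. Macrophages had 0.950 and 0.976, a log2 ratio of 0.04 (interval -0.08 to 0.16), and neutrophils had 0.670 and 0.842, a ratio of 0.33 (interval 0.10 to 0.56). The neutrophil values overlapped those of erythroid cells, the lowest cell type, at 0.686 and 0.795 from 28 UMIs. In T cells *Foxp3*+ cells had 2.69 and 2.99 and the others 2.50 and 2.65. In mast cells *Smad7* was 1.17 and 1.88, a ratio of 0.69 (interval 0.48 to 0.90) that was 0.09 by marker score, and in B cells 1.303 and 0.765, a ratio of -0.77 (interval -0.97 to -0.57). The 5 epithelial markers in B cells summed to 22.7 and 9.80 UMIs per 10000, with 5 of 5 lower in the Mye_KO-labelled library and none at 0, and their part in the B cell ratio was not tested.

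**Figure D4:**
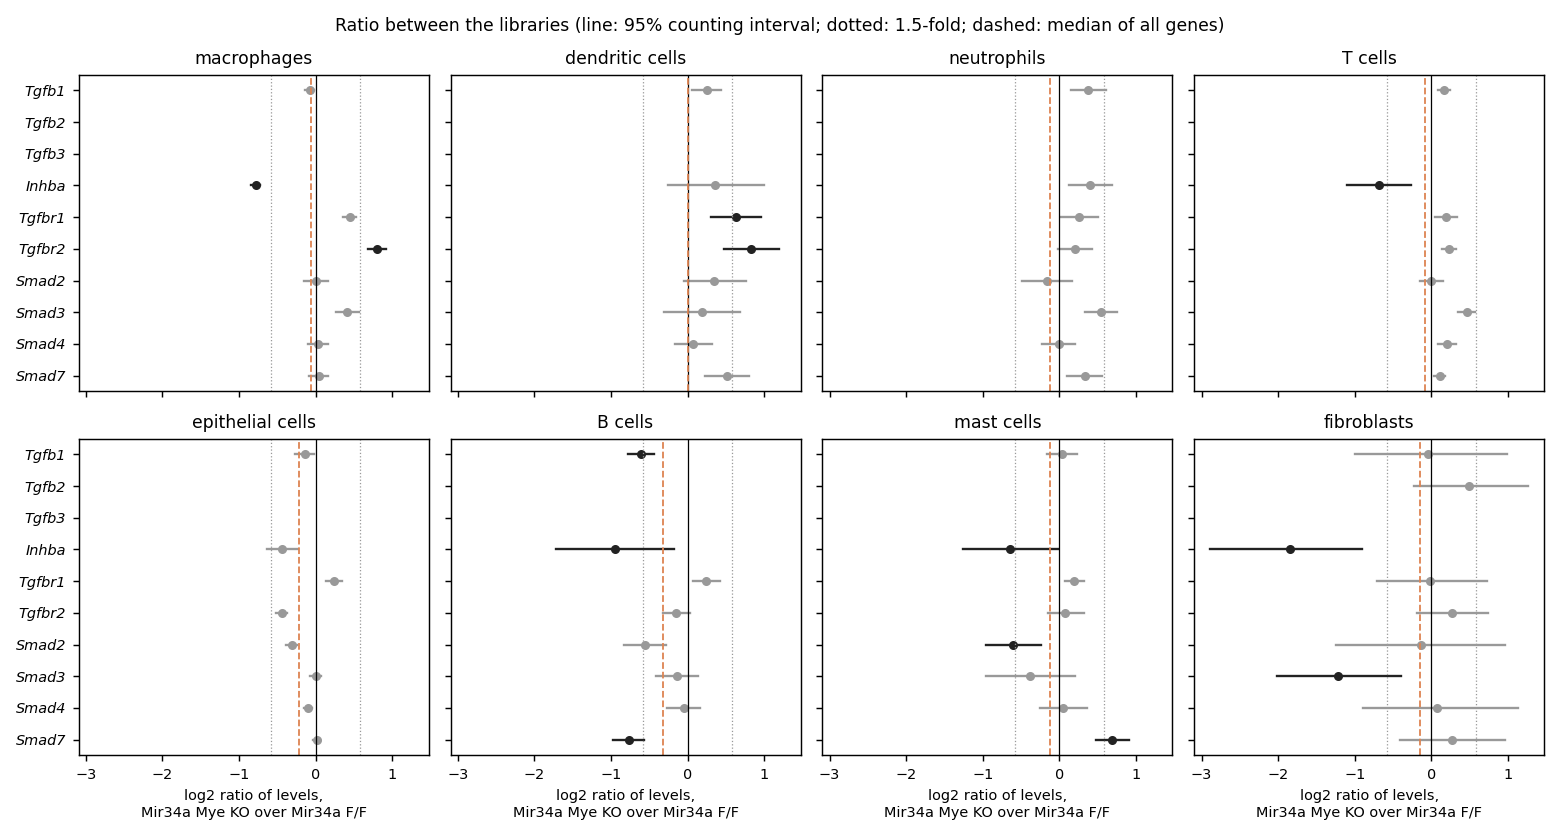
Log2 ratio of levels, library labelled Mir34a Mye KO over library labelled Mir34a F/F (x axis), for the genes past the filter (y axis) in 8 cell types. Points are ratios, lines 95% counting intervals, dotted lines mark 1.5-fold, the dashed line is the median of all genes, and black marks ratios past 1.5-fold: *Tgfbr2* is 0.80 and *Inhba* -0.78 in macrophages.

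Counted over cell types, 88 of the 110 combinations of gene and cell type passed the filter (a mean of both libraries of at least 0.1 and at least 4 UMIs in each). Of these 7 were at least 1.5-fold higher and 14 at least 1.5-fold lower in the Mye_KO-labelled library, shares of 7.95% and 15.9%. These are near the 7.55% and 15.2% of all combinations of a gene and a cell type past the filter. In macrophages 1 of 8 was higher (*Tgfbr2*) and 1 lower (*Inhba*), where 1.69% of all genes past the filter were higher and 3.18% lower. The median log2 ratio of the 8 genes there was 0.04 against -0.06 for all genes. In dendritic cells 2 of 8 were higher (*Tgfbr1* and *Tgfbr2*) and none lower, against 4.97% and 6.49% of all genes, and the median was 0.36 against 0.01. Neither epithelial cells nor neutrophils had a member past 1.5-fold among 8, against 1.34% and 4.04% of all genes in epithelial cells and 5.4% and 11.4% in neutrophils. With summed UMIs each had 1, *Inhba* lower in epithelial cells and *Smad3* higher in neutrophils, at the values given above. Their medians were -0.12 against -0.22 in epithelial cells and 0.30 against -0.13 in neutrophils. In T cells 1 of 8 was lower (*Inhba*), against 7.76% of all genes (1.66% higher).

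The other cell types have a large background. In B cells 3 of 8 were lower (*Tgfb1*, *Inhba* and *Smad7*) where 24.6% of all genes were lower and 4.06% higher. With totals that leave out immunoglobulin, mitochondrial and ribosomal RNA-like genes, 0 of 8 were lower and 0 higher in B cells, against 9.88% and 10% of all genes under the same totals. The 4 plasma cell markers in B cells summed to 129 and 304 UMIs per 10000, with 4 of 4 higher in the Mye_KO-labelled library. In mast cells 1 was higher (*Smad7*) and 2 lower (*Inhba* and *Smad2*), against 3.78% and 14.3%. Fibroblasts had 2 lower of 9 (*Inhba* and *Smad3*), against 28.1% of genes lower and 17% higher. In endothelial cells *Smad4* was higher and *Smad2* lower, against 12.9% and 25.5%, in erythroid cells *Tgfbr1* and *Smad2* were lower, against 19.8% (31.2% higher), and in basophils *Smad3* and *Smad7* were higher and *Inhba* and *Smad2* lower, against 14.9% and 29.6%. In these last 3 cell types no member had a counting interval that left out 0.

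Of 67 other genes of the pathway, 39 passed the filter in macrophages, and 0 were at least 1.5-fold higher and 2 lower in the Mye_KO-labelled library (0% and 5.13%, against 1.69% and 3.18% of all genes). Their median log2 ratio was 0.05 against -0.06 for all genes. The pair that was lower belonged to the activation and storage of latent TGF-β: *Thbs1*, which encodes thrombospondin-1, an activator of latent TGF-β, at 19.97 and 11.6 (log2 ratio -0.78), and *Ltbp3*, which encodes a latent TGF-β binding protein, at 0.155 and 0.101 (-0.61). *Thbs1* had 30589 and 42333 UMIs and *Ltbp3* 314 and 375, of 19470961 and 33225004 UMIs in all macrophages. By these summed counts over the totals, both genes were lower in the Mye_KO-labelled library but under 1.5-fold, like *Inhba* in macrophages. Both were thus past 1.5-fold only when averaged over cells, and neither counts as lower with summed UMIs. None of the 10 target genes and none of the 7 other receptors past the filter was past 1.5-fold in macrophages. In neutrophils 4 of 11 target genes were higher and 1 lower (36.4% and 9.09%, against 5.4% and 11.4% of all genes). In B cells 0 of 30 pathway genes were higher and 13 lower (0% and 43.3%, against 4.06% and 24.6%), with 7 of 9 targets among the lower. The part of the totals and of the epithelial markers in the B cell counts was not tested.

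*Thbs1* was also at least 1.5-fold lower in T cells (1.35 and 0.677), B cells (1.17 and 0.455), mast cells (1.45 and 0.648), fibroblasts (4.35 and 1.61) and endothelial cells (9.24 and 3.25). The levels in T, B and mast cells lay close together and far under that of macrophages, and they are not read as expression by these cells. In T cells 2 of 39 pathway genes were higher and 5 lower (5.13% and 12.8%, against 1.66% and 7.76% of all genes), with *Itgb6* (an integrin subunit that activates TGF-β) at -0.82 and the target gene *Id1* at -0.80 among the lower. Both genes were higher in epithelial cells, and the 5 epithelial markers in T cells summed to 25.7 and 13.9 UMIs per 10000, with 5 of 5 lower in the Mye_KO-labelled library and none at 0. In neutrophils 5 of 39 were higher and 4 lower (12.8% and 10.3%, against 5.4% and 11.4% of all genes). *Zeb2*, a transcription factor gene of the epithelial-mesenchymal program, was 8.77 and 16.2 there, a log2 ratio of 0.88, while *Fst* (follistatin, which binds activins) was at -1.23 and *Zfyve9* (which presents SMAD2 and SMAD3 to the receptor) at -0.89. The epithelial markers in neutrophils summed to 28.3 and 16.8, again with 5 of 5 lower and none at 0, and their part in these T cell and neutrophil ratios was not tested. In epithelial cells 2 of 40 were higher and 3 lower (5% and 7.5%, against 1.34% and 4.04% of all genes), with *Zeb2* at 0.90, *Fst* at -0.93 and *Ccn2*, a target gene, at -0.77. *Zeb2* was 0.540 and 1.004 UMIs per 10000 in these cells, where the 5 macrophage markers summed to 1.68 and 2.51 (4 of 5 higher in the Mye_KO-labelled library, none at 0) and the 5 neutrophil markers to 10.5 and 10.8 (2 of 5 higher, none at 0). Their part, and that of the lower epithelial markers given above, was not tested. Fibroblasts had 9 of 53 higher and 14 lower, shares of 17% and 26.4% that were near the 17% and 28.1% of all genes. *Fst* was at -1.81 from 14 and 8 UMIs, *Thbs1* at -1.44 from 171 and 123, and the activin receptor gene *Acvr1b* at -1.27 from 8 and 13. The intervals of *Fst* (-3.74 to 0.04) and *Acvr1b* (-3.40 to 1.05) included 0, and that of *Thbs1* (-1.97 to -0.90) did not. Endothelial cells had 10 of 56 higher and 15 lower (17.9% and 26.8%, against 12.9% and 25.5% of all genes), with *Itgae* at 3.01 from 5 and 11 UMIs, *Acta2* at 2.64 from 6 and 21, and *Ccn2* at -2.23 from 97 and 20.

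The genes whose levels ran most like each member over the 11 cell types were found by the Pearson correlation of log2 levels, computed in each library and ranked by the lower of the pair, among 5878 genes. These are descriptions over 11 points that share library and depth. For *Inhba* they were *Ccl8* (0.92 and 0.90), *Slc7a2* and *Tgfbi*. For *Tgfb1* they were *Mir155hg* (0.92 and 0.94), *Tpt1* and *Gna13*, and for *Tgfb2* they were *Rgs5* (0.99 and 0.99), *Col8a1* and *Klhl29*. *Rgs5* is a pericyte marker, and the 3 pericyte markers summed to 8.23 and 4.93 UMIs per 10000 in the annotated fibroblasts. For *Tgfbr1* they were *Fnip1* (0.88 and 0.87), *Mtss1* and *Hpgds*, and for *Tgfbr2* *Cops8* (0.92 and 0.88), *Zfp36l1* and *Tmem30a*. For *Smad7* they were *Nlk* (0.91 and 0.90), *Prrc2c* and *Fryl*, for *Smad2* *Zc3h7a*, *Eif4g1* and *Pkn2*, for *Smad3* *Arid5b*, *Homer1* and *Zswim6*, and for *Smad4* *Cyc1*, *Foxp4* and *Cbx5*. *Tgfb3* was matched by *H2-K1*, *Tiprl* and *Plcl1* at lower values (0.77 and 0.74 for the first).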

How the data were processed

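Single-cell libraries from CACs of 2 genotypes were used, 1 library each. Per the labels and the study's methods the reads were aligned to mm10, and the submitters' notes name Cell Ranger version 7.2.0. From these counts the authors deposited a table of natural log values, log(1 + 10000 × UMIs / total UMIs of the cell), for 32291 genes, and a cell annotation whose library and cell type columns were used as the authors gave them; it names no mouse. Doublets were not called here. Because every nonzero value was a whole multiple of 1 UMI (largest deviation 1.5e-10), UMIs were recovered by division.

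Levels were cell means scaled to 10000 UMIs, with a gamma interval for weighted Poisson counts; ratios have a conditional binomial interval and shares an exact one (95%). These cover counting error only. The filter was a mean of at least 0.1 over both libraries and at least 4 UMIs in each. With 1 library per genotype no test was made. Thinning drew 1000 UMIs per cell without replacement and left out 1021 shallower cells. The stated study filter of under 25% mitochondrial UMIs leaves 32283 of the 38883 cells in the table; all 38883 were used. Seed matches used GENCODE annotation of GRCm38.

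The members and gene lists were chosen with earlier results of these data known. Named genes are the 10 members in every cell type, the 3 pathway genes with the largest ratio past 1.5-fold in macrophages, neutrophils, T cells, epithelial cells, fibroblasts and endothelial cells, the 3 genes most like each member, and the markers in the checks of cell types. Python 3.11.15, numpy 2.4.6, scipy 1.17.1 and matplotlib 3.10.9 were used, and the ratio interval was tested on simulated data. These were Poisson counts at the totals of the macrophages and neutrophils, the model that the interval assumes. They do not test it for UMIs that sit in few cells, as those of *Inhba* did in macrophages. Alternatives were summed UMIs, thinning, cells with at least 500 genes and under 10% mitochondrial UMIs, other totals, a pseudocount of 0.1, median centring, marker-score cell types and other filters; leaving out the highest cell was added after seeing the data.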

Additional observations from a re-analysis of the deposited data

Results flagged for a closer look

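*Smad7* was past 1.5-fold in opposite directions in a pair of cell types, higher in the Mye_KO-labelled library in mast cells (log2 ratio 0.69) and lower in B cells (-0.77), with both counting intervals off 0. The ratios were 1.46 apart on the log2 scale. This difference between cell types was not tested, since each genotype had 1 library. The B cell ratio was -0.51 with totals that leave out immunoglobulin, mitochondrial and ribosomal RNA-like genes, and the mast cell ratio was 0.09 by marker score. The 5 epithelial markers were lower in the Mye_KO-labelled library in both cell types, at 22.7 and 9.80 summed UMIs per 10000 in B cells and 24.6 and 12.5 in mast cells, and their part was not tested.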

How the results depend on the processing

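Of the 21 ratios past 1.5-fold, 15 stayed past it in the same direction with summed UMIs, 13 with thinning, 17 with the stricter cell quality, 14 with other totals, 6 with cell types by marker score, 12 with a pseudocount of 0.1, 16 with the median subtracted and 20 without the highest cell. The sign turned for *Inhba* in B cells (0.18) and *Smad2* in basophils (0.26) after thinning, and for *Smad3* in fibroblasts (0.0438) and *Smad4* in endothelial cells (-0.0405) by marker score; the cause was not tested. The 7 combinations higher became 13 with summed UMIs, 13 with other totals and 3 by marker score. The 14 lower became 7 with other totals, 9 by marker score, 7 with the pseudocount, 9 with the median subtracted and 6 (of 70) with a mean of at least 0.5. In macrophages the 1 higher became 3 and the 1 lower became 0 with summed UMIs. *Tgfbr2* in macrophages and *Inhba* in fibroblasts stayed past 1.5-fold under 8 of 8 alternatives, and *Inhba* in macrophages under 7. The cell type with the highest level moved for *Tgfb3*, *Tgfbr2*, *Smad2*, *Smad3* and *Smad4* under at least 1 alternative. No paired analysis was possible because each genotype had 1 library. Depth limits *Tgfb2* outside fibroblasts, *Tgfb3* in every cell type, and fibroblasts, basophils and erythroid cells in general.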
